A study of Mus musculus with 24 samples.

Results

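The replication-dependent histone genes were taken as every gene on the array whose name begins with Hist1h, Hist2h, Hist3h or Hist4h. This gave 56 of 37074 gene names, carried by 68 of 56605 probes. By class they were 6 linker histone H1 genes, 18 H2a, 14 H2b, 9 H3 and 9 H4 genes, and by cluster 42 Hist1, 10 Hist2, 3 Hist3 and 1 Hist4 gene. The mice were Erfe-/- males, 4 per time point, bled by retro-orbital puncture, and RNA of their liver and marrow was taken at 0 h (the controls), 24 h or 48 h, so that each of the 6 groups held 4 one-colour arrays. Erfe-/- mice lack erythroferrone, a hormone that erythroblasts release after blood loss. Every group carried this genotype and no wild-type group was analysed here, so nothing below measures the effect of the deletion. The labels give no age or strain, and do not say whether the liver and the marrow array of a number came from 1 animal.

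Cells double their histones when they copy their DNA, and the clustered histone genes are transcribed mainly in S phase for this purpose. The core histones H2A, H2B, H3 and H4 form the spool of the nucleosome, and H1 binds the DNA that enters and leaves it. The mRNAs of these genes usually end in a stem-loop bound by the protein SLBP in place of a poly(A) tail, although some of the genes also make polyadenylated mRNAs, in particular in cells that have stopped dividing. Erythroblasts and other precursors keep marrow rich in dividing cells, whereas most hepatocytes of adult liver rest. The labelling kit named in the labels starts cDNA synthesis from an oligo-dT primer, so a level below is the signal of the transcripts labelled in that way, and the share of all histone mRNA that this captures was not tested.

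The probes themselves decide what each gene name measures. Of the 68 member probes, 20 shared a run of at least 20 bases with the probe of another member gene, 10 of them in the H2a and 5 in the H4 class. The H2a probes below end in the letters of a stop codon and are shown because their capitals, the longest run each shares with another member gene, cover much of the 60 bases.
Hist1h2af: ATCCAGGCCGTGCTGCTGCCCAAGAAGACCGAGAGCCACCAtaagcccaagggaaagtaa
Hist1h2ah: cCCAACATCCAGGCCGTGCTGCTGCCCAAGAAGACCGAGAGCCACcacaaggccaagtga
Hist1h2ak: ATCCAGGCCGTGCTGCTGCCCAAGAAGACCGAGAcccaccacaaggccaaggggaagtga
Hist1h2an: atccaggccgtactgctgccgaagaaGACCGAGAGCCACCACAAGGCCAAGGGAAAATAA
Hist2h2aa2: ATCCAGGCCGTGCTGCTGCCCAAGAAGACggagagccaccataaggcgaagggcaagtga
Hist2h2ac: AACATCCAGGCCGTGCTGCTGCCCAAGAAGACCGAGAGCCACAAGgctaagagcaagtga
The shared run was 41 bases in Hist1h2af, 44 in Hist1h2ah and 45 in Hist2h2ac. How much of each signal comes from a related gene was not tested, and counts of H2a genes below are counts of names and not of independent measurements. Probes were compared with each other and not with transcripts, so names of the other classes may not be independent measurements either. A single place also serves 3 names: the files' mm9 coordinates put the probes of Hist1h2an (chr13:21902669-21902728), Hist1h2ao (chr13:21902695-21902754) and Hist1h2ai (chr13:21902706-21902779, all on the plus strand) on overlapping bases.

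Other probes reach the 3′ end of the mRNA. The stem-loop was searched as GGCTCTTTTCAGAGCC, the most frequent run in the member probes that pairs 6 bases over a loop of 4, with up to 2 mismatches. A whole one was found in 8 of all probes (0.0141%), and 6 of these belonged to member genes. The bases around it are shown with the stem-loop in capitals.
Hist1h2bf: cccaaaGGCTCTTTTCAGAGCCaccta
Hist2h2bb: ccaaaaGGCTCTTTTCAGAGCCacttta
Hist1h3a: accaaaGGCTCTTTTCAGAGCCaca
Hist1h3g: tttaaaGGCTCTTCTTAGAGCCaccca
Hist1h3i: acaaaaGGCTCTTTTCAGAGCCccctc
Hist1h4m: actaaaGGCCCTTTTCAGGGCCatccaa
Counted from the first capital, the Hist1h3g element carries T8C and C10T and the Hist1h4m element T4C and A13G, and the other 4 match the searched letters. Another 5 member probes end inside a stem-loop, which makes 11 stem-loop probes in the counts below. A further 2 (of Hist1h2ae and Hist2h2ac) begin inside a stem-loop and lie downstream of it, and are not counted among them. A different set of probes holds the letters of a polyadenylation signal, in capitals here, the element that directs addition of the poly(A) tail on other mRNAs.
Hist1h2ag: ccaaggggaAATAAAaccctttat
Hist1h2be: ctgttcattATTAAAgcattcctg
Hist2h2bb: gtcagtttgAATAAAgacagagaa
Hist2h2be: gatcgAATAAAtccattcac
Hist3h2ba: aatggtattAATAAAtttggttca
Hist2h2bb appears in both sets because it has a probe of each kind. In Hist1h2ag the letters overlap bases like the stop codon that ends the Hist1h2an probe, so they may belong to the coding end. Whether any of these letters act as a signal was not tested.

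The promoters of these genes have features in common that did not enter their choice. RefSeq promoters (GRCm38.p6, 250 bases before to 50 after the start) were matched for 49 of 56 members, as 50 windows. On either strand, CCAAT was found in 88% of member promoters against 37.4% of all 32851 promoters, TATAAA in 58% against 13.6%, and ATTTGCAT, the octamer bound by Oct1, in 26% against 1.74%. The octamer was found in 41.2% of H2a and 50% of H2b promoters and in 0 of the 6 H1, 7 H3 and 8 H4 promoters, and H4 was the class with few CCAAT boxes (25%). Windows of neighbouring genes can overlap, as for Hist1h2ae and Hist1h2bg. The same octamer can then count for an H2a and an H2b promoter, so the windows are not independent. Promoters of 2 genes that differed in opposite directions between the tissues are printed for the 120 bases before the start, with these motifs in capitals; Hist1h1b was higher in marrow and Hist1h2bm higher in liver.
Hist1h1b (GRCm38.p6 chr13:21780626-21780745, minus strand): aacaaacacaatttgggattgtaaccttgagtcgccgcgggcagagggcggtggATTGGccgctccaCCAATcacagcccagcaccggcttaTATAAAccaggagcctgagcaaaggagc
Hist1h2bm (GRCm38.p6 chr13:21721924-21722043, plus strand): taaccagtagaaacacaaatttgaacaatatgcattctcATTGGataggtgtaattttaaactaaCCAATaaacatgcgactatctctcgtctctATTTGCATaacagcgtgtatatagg
Both windows hold CCAAT on each strand. A match is a description of the letters and not of binding.

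Levels are given as log2 of the processed intensity relative to the array's 75th percentile, which lay between 693.8 and 941.8 intensity units on marrow arrays and between 354.1 and 466.7 on liver arrays. Between 59 and 63 member probes were well above background on a marrow array and between 43 and 54 on a liver array. A gene entered a test if some group of the fit had its probe well above background on every array, which held for 51 members in marrow, 39 in liver and 51 over both tissues. The 5 members left out in marrow were Hist1h2ad, Hist1h2al, Hist1h2bg, Hist2h2aa1 and Hist3h2bb-ps. The knocked-out gene, listed as Fam132b, was not well above background on any liver array with either probe and was so on 0 and 1 of 12 marrow arrays, and whether its probes lie in the deleted part is not given. One marrow array, 24 h replicate 2, held 12 hepatocyte markers at a summed level of 20.7% of the liver mean, against 0.0229% to 0.0699% on the other marrow arrays, so the median change and the lowest adjusted p of members at 24 h are also given without it. The arrays lay on 3 slides that each held several groups, and the comparisons at 24 and 48 h within a tissue share the 0 h arrays.

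Before bleeding, histone genes differed strongly between the tissues, and most were higher in marrow. Of the 51 members tested, 40 were higher in marrow and 10 higher in liver at 0 h (limma, Benjamini-Hochberg adjusted p under 0.05). Over all 22794 genes, 80.3% were called, 39.5% higher in marrow and 40.8% higher in liver. The median member difference was 3.56 log2 units, against -0.03 for all genes. Of the 51, 12 passed the filter through marrow alone, the tissue where they are high, and so had to differ, and 8 of these were not above background on any liver array at 0 h. Of the 39 that also passed in liver, 28 were higher in marrow and 10 higher in liver, with a median of 3.37. The 28 include Hist3h2ba, which passed in liver with its other probe. Its probe compared here passed through marrow alone and so also had to differ. All 15 H2a genes tested, 4 of 6 H1, 7 of 9 H3 and 8 of 9 H4 genes were higher in marrow, while the 12 H2b genes divided into 6 higher in each tissue. Among those that also passed in liver, 11 of 11 H2a, 2 of 4 H1, 4 of 6 H3 and 8 of 9 H4 genes were higher in marrow. Of the 9 such H2b genes, 3 were higher in marrow, Hist3h2ba among them, and 6 higher in liver. Within slides 1, 2 and 3 the median member difference was 3.40, 3.97 and 3.64. In whole tissue, fewer cells of a type and less RNA per cell cannot be told apart.

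**Figure D1:**
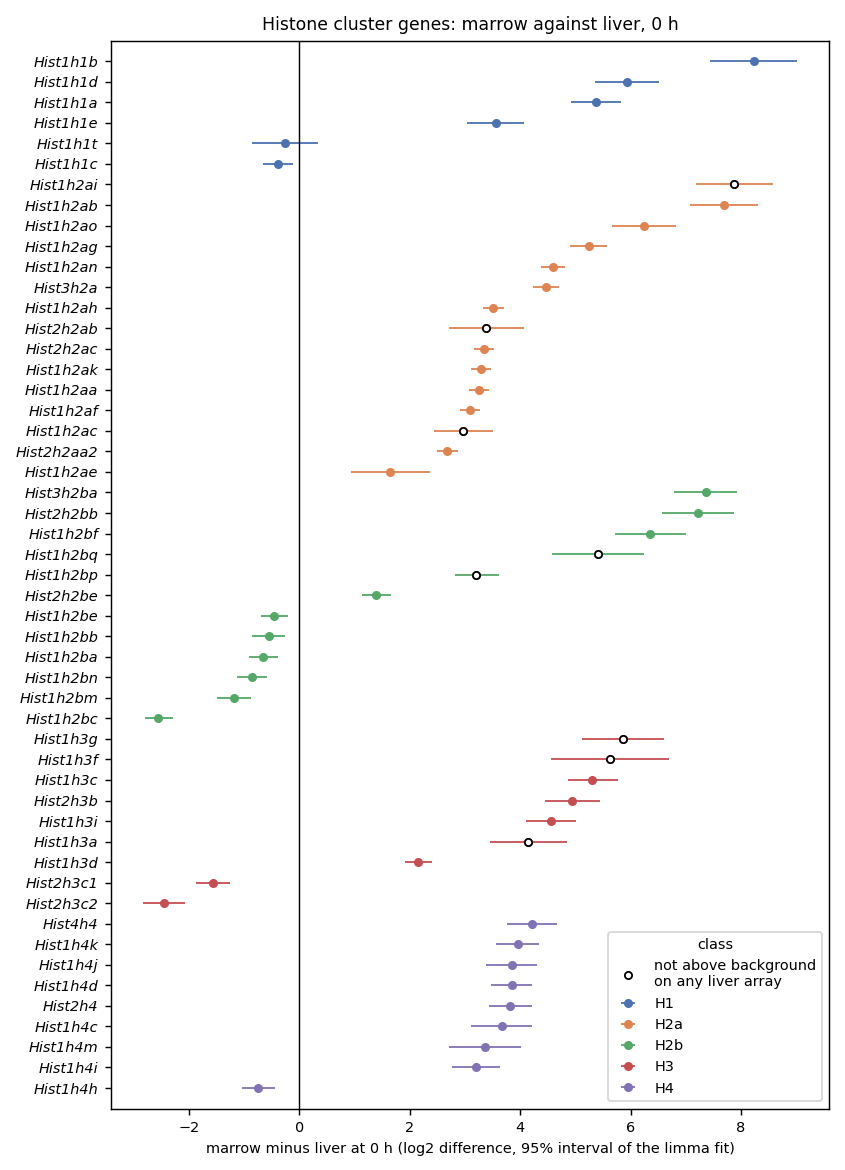
Marrow minus liver difference at 0 h (log2, x axis) for the 51 members tested, grouped by class, with points at the fitted difference and bars for its 95% interval. Open points mark the 8 members not above background on any liver array, whose plotted difference is set by background. Values run from -2.55 for Hist1h2bc to 8.23 for Hist1h1b, and 6 of the 12 H2b genes lie on each side of 0.

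Hist1h1b, which encodes the linker histone H1.5 of dividing cells, showed the largest fitted difference. Its marrow levels at 0 h were 6.32, 5.62, 6.15 and 6.12, and its liver levels -2.26, -2.40, -2.63 and -1.39. No marrow array came near a liver array, and the difference was 8.23 (SE 0.38, limma adjusted p = 3.61e-14, exact permutation p = 0.0286, the smallest that 4 arrays against 4 can give). The other 4 of the 5 largest fitted differences were those of the H2a genes Hist1h2ai and Hist1h2ab and the H2b genes Hist3h2ba and Hist2h2bb, whose order is not set because Hist1h2ai has only a bound. Hist1h2ai stood at 2.31, 1.44, 2.09 and 2.19 in marrow and was not well above background on any liver array at 0 h. It was at least 89-fold higher in marrow, a bound that sets the marrow mean against the lowest liver signal among probes well above background, or the probe's own signal where higher. Bounds for the 7 other members not above background on any liver array at 0 h ran from 2.22-fold for Hist2h2ab to 16.8-fold for Hist1h3g. Hist1h2ab was 7.61 ± 0.21 in marrow and -0.08 ± 0.48 in liver (SD, n = 4 each). Hist3h2ba, with the probe that holds a polyadenylation signal, was 2.64 ± 0.21 against -4.71 ± 0.82, and Hist2h2bb 3.05 ± 0.34 against -4.18 ± 0.49, with 3 and 2 of 4 liver arrays well above background. The limma adjusted p was 2.41e-15 for Hist1h2ab and 1.53e-14 for Hist2h2bb, which also passed the filter in liver. The probes of Hist1h2ai and Hist3h2ba passed through marrow alone and so had to differ, and no p is given for them. In Hist1h1b, Hist1h2ab and Hist2h2bb the lowest marrow array lay above the highest liver array.

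The genes that were higher in liver formed a small set. Hist1h2bc, an H2b gene, led it, with marrow levels of 3.84, 3.89, 4.09 and 4.34 and liver levels of 6.84, 6.55, 6.41 and 6.54. The groups did not overlap, and the difference was -2.55 (SE 0.12, limma adjusted p = 9.31e-14). Hist2h3c2 and Hist2h3c1, H3 genes of the Hist2 cluster, differed by -2.44 and -1.56. The H2b genes Hist1h2bm and Hist1h2bn differed by -1.18 and -0.86. Liver levels at 0 h were 4.70, 4.47, 4.33 and 4.53 for Hist1h2bm and 4.80, 4.56, 4.48 and 4.64 for Hist1h2bb. Whether the H2b probes share signal was not tested. The other 5 were Hist1h4h (-0.74), Hist1h2ba (-0.65), Hist1h2bb (-0.55), Hist1h2be (-0.45) and Hist1h1c (-0.39). Hist1h1t, the H1 gene of the testis, was the 1 member not called, at -0.26 (SE 0.29, adjusted p = 0.410).

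Both probes of a gene did not always give the same tissue difference. In the fit of both tissues 9 members had 2 probes that passed the filter. For the 8 with both probes above background on at least 3 arrays of each tissue at 0 h, the difference between their probes was itself compared between the tissues. Hist1h1c, which encodes H1.2, was the clearest case. Its probe that ends in the stem-loop stood at 1.68, 0.93, 1.47 and 1.66 in marrow and at -0.74, -0.43, -0.85 and -0.73 in liver, higher in marrow without overlap. Its probe farther downstream stood at 2.56, 2.67, 2.50 and 2.86 in marrow and at 2.87, 3.35, 2.94 and 2.98 in liver, higher in liver. The tissue difference was thus 2.12 with one probe and -0.39 with the other, and they differed by 2.51 (exact permutation p = 0.0286, 0.0572 after Benjamini-Hochberg over the 8 genes). The files' mm9 coordinates place the downstream probe at chr13:23832018-23832077 and the stem-loop probe at chr13:23831330-23831389, both on the plus strand.

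Hist3h2a gave 4.47 and 1.45 with a probe of high and of low GC content. In Hist3h2ba the stem-loop probe gave the smaller difference, with 4.52 against 7.36 for the probe with a polyadenylation signal, which was well above background on 3 of 4 liver arrays. In Hist2h2bb the probes could not be compared, because the one with a polyadenylation signal was above background on 0 of 12 liver arrays and the stem-loop probe on 2 of 4 at 0 h. Both probes of Hist2h2be (1.39 and 1.34), Hist1h4d (3.85 and 3.78) and Hist2h3c2 (-2.28 and -2.44) gave nearly the same difference. Of the 8 genes, 4 had the smallest exact permutation p possible, 0.0286, namely Hist1h1c, Hist1h4k, Hist3h2a and Hist3h2ba. Of the 3 overlapping H2a probes, the marrow minus liver difference was 4.60 for Hist1h2an and 6.25 for Hist1h2ao, and at least 6.48 for Hist1h2ai, which had no liver array above background. Of the 11 stem-loop probes, 10 were higher in marrow and 0 higher in liver, against 39.5% and 40.8% of all genes. In 3 of the 10 no liver array at 0 h was above background. Only 7 of the 11 passed the filter in liver. Those of Hist1h2ai, Hist1h2bf, Hist1h3a and Hist1h3g passed through marrow alone and so had to differ.

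**Figure D2:**
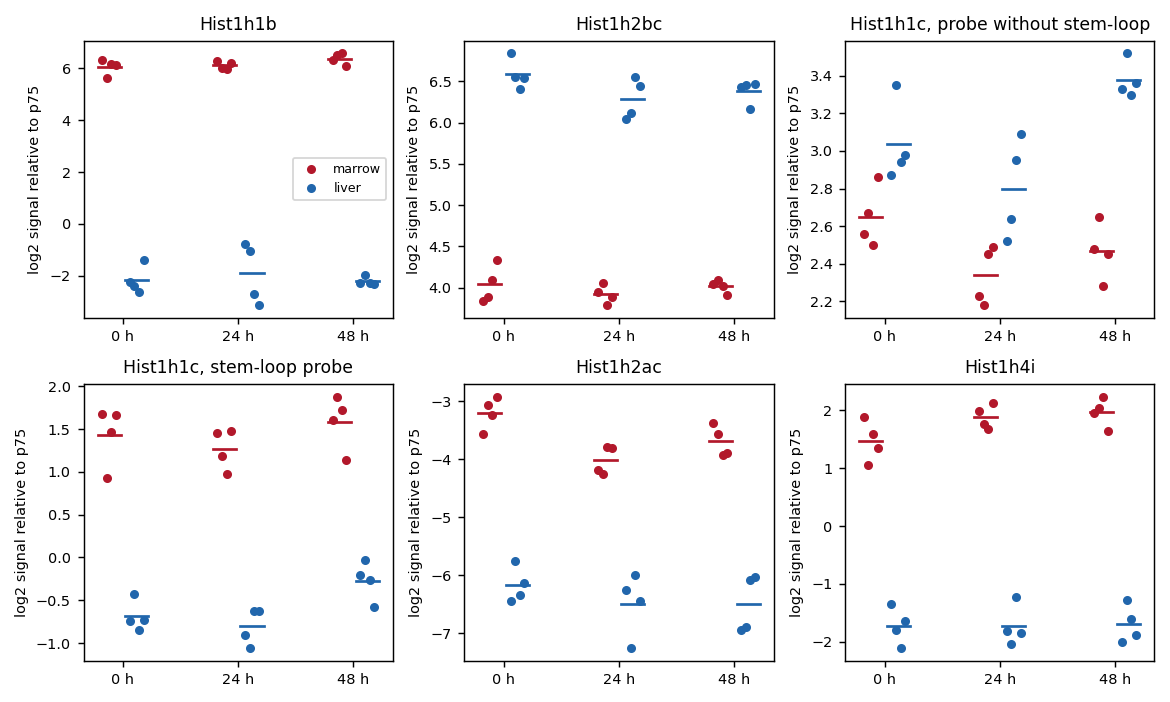
Level of 5 members (6 probes) on every array by time, as log2 signal relative to the array's 75th percentile, with marrow in red, liver in blue, points for arrays and lines for the mean of 4. Hist1h1b is far higher in marrow and Hist1h2bc in liver, the 2 probes of Hist1h1c order the tissues differently, and Hist1h2ac in marrow is lower on every array at 24 h than at 0 h. Hist1h2ac was not above background on any liver array at 0 h.

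The brightest members of each class in marrow varied little over time. Hist1h2ah, an H2a gene, was 9.33 ± 0.19, 9.27 ± 0.08 and 9.41 ± 0.13 at 0, 24 and 48 h in marrow and 5.81 ± 0.09, 5.81 ± 0.10 and 5.66 ± 0.10 in liver (SD, n = 4). Hist1h2ag, whose probe shares 39 bases with that of Hist1h2ah, was 9.29 ± 0.17, 9.21 ± 0.10 and 9.33 ± 0.16 in marrow. Among H4 genes, Hist1h4d was 8.15 ± 0.35, 8.10 ± 0.15 and 8.30 ± 0.28, and Hist1h4k 7.24 ± 0.37, 7.23 ± 0.17 and 7.45 ± 0.31. For H3, Hist1h3d was 5.98 ± 0.28, 5.92 ± 0.17 and 6.13 ± 0.20, and Hist1h3c 5.41 ± 0.43, 5.24 ± 0.21 and 5.52 ± 0.31. Hist1h1e, an H1 gene, was 4.85 ± 0.25, 4.83 ± 0.14 and 5.05 ± 0.22, and Hist1h2bb 4.07 ± 0.28, 3.94 ± 0.15 and 4.20 ± 0.17. Hist1h1b, the brightest H1 gene, stood at 6.27, 6.01, 5.97 and 6.21 at 24 h and at 6.31, 6.53, 6.58 and 6.09 at 48 h, and Hist1h2bc at 3.95, 4.06, 3.79 and 3.89 and at 4.04, 4.09, 4.02 and 3.91. Both genes overlapped with their 0 h levels at either time. Over all members tested, the median level per array was 2.67 to 3.33, 2.76 to 3.22 and 2.99 to 3.62 in marrow at 0, 24 and 48 h, and 2.46 to 2.75, 2.20 to 2.64 and 2.45 to 2.70 in liver.

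Bleeding was followed by no called change of any histone gene in marrow. At 24 h, 0 of 51 members passed (limma, adjusted p under 0.05), against 0.999% of all 21416 genes. An unadjusted p under 0.05 was found for 3 members (12.6% of all genes), and 3 had groups that did not overlap (8.09%). At 48 h, 0 of 51 passed against 1.06%, 6 had such an unadjusted p against 15.7%, and 1 had groups apart against 12.4%. Between 24 and 48 h, 0 passed against 0.00467%, with 5 against 7.66% and 4 against 3.77% by the other measures. At these background rates less than 1 call among 51 members would match the rest of the array. The median member change was -0.08 at 24 h, 0.15 at 48 h and 0.22 from 24 to 48 h, against -0.03, -0.00 and 0.03 for all genes. The fitted change was above 0 in 6 of 51 members at 24 h and in 42 of 51 at 48 h, against 43.1% and 49.4% of all genes, and from 24 to 48 h in 47 of 51, against 58.3%. With each array scaled to its median the 24 h count was 24 of 51 and the median -0.02, against 0.04 for all genes.

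**Figure D3:**
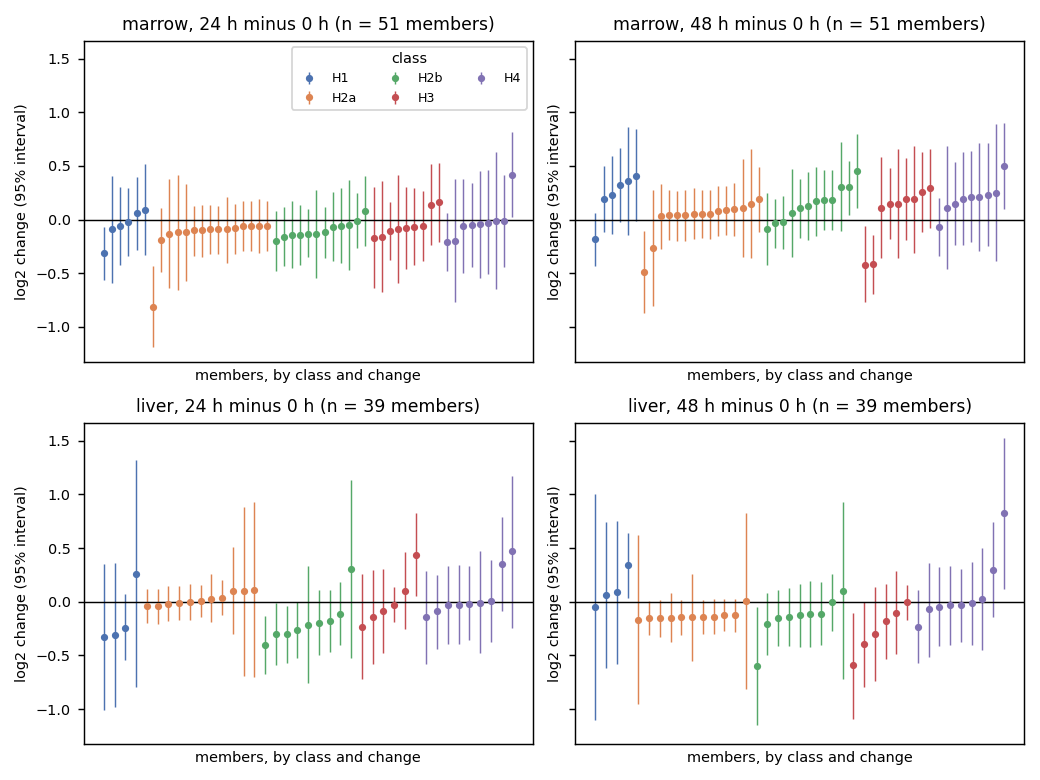
Change of each tested member against 0 h (log2, with the 95% interval of the fit) in marrow and liver at 24 and 48 h, ordered by class and by change within class. Most intervals include 0, and the lowest marrow value at 24 h is Hist1h2ac at -0.81.

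Hist1h2ac, an H2a gene, came nearest to a call. Its marrow levels were -3.57, -3.07, -3.24 and -2.92 at 0 h and -4.18, -4.25, -3.79 and -3.81 at 24 h. Every 24 h array lay below every 0 h array, and the change was -0.81 (SE 0.17, limma adjusted p = 0.0595, exact permutation p = 0.0286). At 48 h the levels were -3.38, -3.57, -3.92 and -3.89, which overlapped with 0 h (change -0.49, adjusted p = 0.202). Its adjusted p at 24 h fell below 0.05 with array weights (0.0307) and without 0 h replicate 1 (0.0433), and it was 0.132 without the array that carries liver transcripts. The other 14 H2a genes tested had changes between -0.19 and -0.06.

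Hist1h4i, an H4 gene, had the largest increases. Its marrow levels were 1.88, 1.05, 1.60 and 1.35 at 0 h, 1.99, 1.77, 1.67 and 2.13 at 24 h, and 1.96, 2.04, 2.24 and 1.65 at 48 h. The groups overlapped at both times, with changes of 0.42 (SE 0.18, adjusted p = 0.373) and 0.50 (SE 0.18, adjusted p = 0.213). Hist1h1c was -0.31 and Hist1h4h -0.21 at 24 h, and Hist1h3g and Hist1h3a were 0.16 and 0.14. At 48 h Hist1h2bp, an H2b gene, was 0.45 (adjusted p = 0.195) and Hist1h1a, an H1 gene, 0.41. Hist2h3c1 and Hist2h3c2, the H3 genes that were higher in liver, were -0.41 (adjusted p = 0.142) and -0.42 (adjusted p = 0.238). From 24 to 48 h the largest values were 0.51 for Hist1h2bp, 0.45 for Hist1h1t and 0.38 for Hist3h2ba, and the lowest -0.35 for Hist2h3c2, -0.30 for Hist2h3c1 and -0.16 for Hist1h2bq.

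The shift of the marrow members as a group varied with single arrays and slides. On each array, the median deviation of the members from their marrow means was -0.36 on 0 h replicate 2 and 0.32 on 48 h replicate 2, and between -0.23 and 0.19 on the other 10. Within slides 1, 2 and 3 the median change at 48 h was 0.17, 0.24 and -0.22, and at 24 h 0.09, -0.27 and -0.19, so its sign differed between slides at both times, with 1 or 2 arrays a group on each slide. From 24 to 48 h it was 0.08, 0.51 and -0.04, with 31, 47 and 14 of 51 members above 0. The only 24 h array on slide 2 was replicate 2, the one with liver transcripts. All genes there had a median of 0.17 from 24 to 48 h and -0.13 at 24 h. Leaving out single arrays gave a member median from 24 to 48 h of 0.15 to 0.32. With the slide as a block the 48 h median was 0.10. Without 0 h replicate 2 the 48 h median was -0.00 and 23 of 51 members lay above 0. Without 24 h replicate 2, the array with liver transcripts, the 24 h median was -0.03 and 15 of 51 lay above 0.

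**Figure D4:**
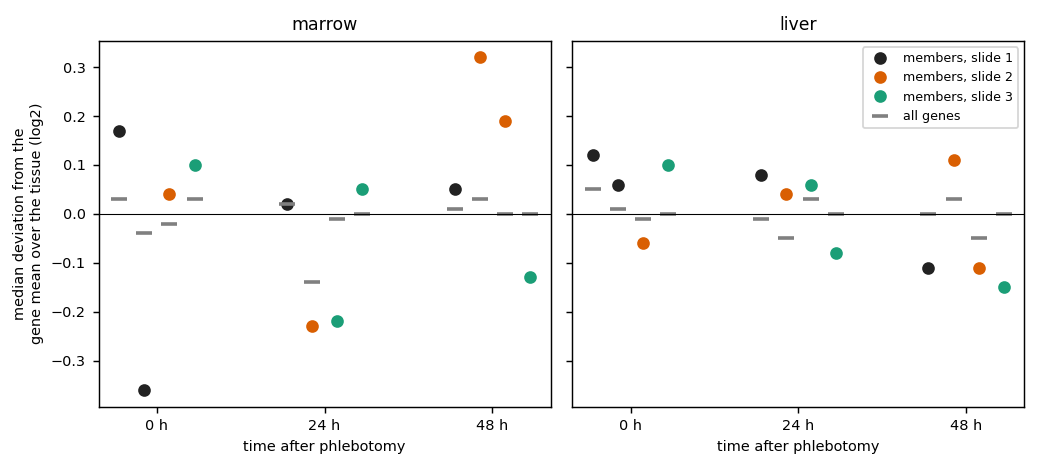
Median deviation of the tested members on each array from their mean over the tissue's 12 arrays (log2), as points coloured by slide, with grey bars for all genes. In marrow, 0 h replicate 2 is lowest at -0.36 and 48 h replicate 2 highest at 0.32, while all genes stay between -0.14 and 0.03.

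Liver histone genes likewise passed no test after bleeding. At 24 h, 48 h and between them, 0 of 39 members were called, as were 0% of all 19665 genes. An unadjusted p under 0.05 was found for 4 members in each comparison, against 11.2%, 6.54% and 7.68% of all genes. Groups did not overlap in 2, 2 and 1 members, against 5.77%, 4.33% and 3.75%. The fitted change was above 0 in 13, 8 and 13 of 39 members, against 43%, 42.9% and 50.9%. Median member changes were -0.03, -0.12 and -0.10, against -0.03, -0.02 and 0.00 for all genes. Some members varied widely among the 24 h liver arrays. Hist1h1b stood at -0.78, -1.03, -2.69 and -3.13 there, and Hist1h2ab at 0.83, 0.67, -0.76 and -0.61. Others did not, such as Hist1h2ah at 5.79, 5.84, 5.93 and 5.69.

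Hist1h1c, with the probe downstream of the stem-loop, had the lowest adjusted p from 24 to 48 h. Its liver levels were 2.52, 2.64, 2.95 and 3.09 at 24 h and 3.33, 3.52, 3.30 and 3.36 at 48 h. The groups did not overlap, and the change was 0.58 (SE 0.14, adjusted p = 0.408). Hist1h4m, an H4 gene, was 0.47 at 24 h and 0.83 at 48 h (SE 0.32 each, adjusted p = 0.608 and 0.701), with only 2 of 4 arrays well above background at 0 h. Hist1h3i was 0.44 and Hist1h4c 0.35 at 24 h, while Hist1h2be was -0.40, Hist1h1t -0.33 and Hist1h1e -0.31. At 48 h Hist2h3b was -0.59 and Hist2h3c2 -0.39, and Hist3h2ba was -0.60 with its stem-loop probe, the one that passed the filter in liver, with 2 of the 4 arrays at 48 h above background. Its other probe, the one in the tissue comparison, stood at -4.71 at 0 h and -4.45 at 48 h with 3 and 2 of 4 arrays above background. In the same comparison Hist1h1c was 0.34 and Hist1h4c 0.30. From 24 to 48 h Hist1h3i was -0.54, Hist3h2ba -0.38 and Hist2h3b -0.36, and Hist1h1e and Hist1h1t 0.40 and 0.39. None of the changes named here had an adjusted p under 0.05. The Hist1h3i probe was above background on 3, 4 and 1 of 4 liver arrays at 0, 24 and 48 h.

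The change in marrow was also compared directly with that in liver. At 24 h 0 of 51 members differed (0.347% of all genes), with a median of -0.06, and 0 had an unadjusted p under 0.05 (11.4% of all genes). At 48 h 0 of 51 differed (0.386% of all genes), with a median of 0.20 against 0.03 for all genes, and 4 had such an unadjusted p (11% of all genes). The largest was Hist1h1a, whose marrow change exceeded its liver change by 1.13 (SE 0.31, adjusted p = 0.126). Its liver probe was above background on 3, 3 and 2 of 4 arrays at 0, 24 and 48 h, so its liver levels are partly background. Among the 39 members that also passed the filter in liver (Hist3h2ba with its other probe) the medians were -0.04 and 0.20, with 0 called at either time.

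Genes that accompany histone production were examined from lists of related functions. Of 37 DNA replication genes in marrow, 35 had a fitted change above 0 at 24 h (43.1% of all genes), with a median of 0.13 and 0 called. At 48 h 36 had a fitted change above 0 (49.4% of all genes), with a median of 0.27. An unadjusted p under 0.05 was found for 26 of 37, all higher, against 15.7% of all genes in either direction. Pcna, the sliding clamp of DNA polymerase, was 0.27 (adjusted p = 0.182). Of 20 mitosis genes 0 were called, with a median of 0.18, and Mki67 was 0.23 (adjusted p = 0.361). Of 18 genes for histone mRNA transcription, processing and decay 0 were called, with a median of 0.11. Slbp, which binds the stem-loop, was 0.26 (adjusted p = 0.394), and Npat, the coactivator of the histone gene clusters, 0.08. Histone chaperones had a median of 0.13, with 0 of 16 called. Of all genes in marrow, 0.999% were called at 24 h and 1.06% at 48 h. In liver, 11 mitosis genes were tested, with medians of 0.46 at 24 h and -0.29 at 48 h and 0 called. The fitted change was above 0 in 11 at 24 h and in 0 at 48 h, against 43% and 42.9% of all genes. At both times 0 had an unadjusted p under 0.05. From 24 to 48 h their median was -0.76, with 0 of 11 above 0 and 0 called. Such an unadjusted p was found there for 7, all lower, against 7.68% of all genes in either direction.

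The replication-independent histone variants, which are also made outside S phase and come from genes elsewhere, were compared in the same way. Of 13 tested, 0 were called in marrow at 24 or 48 h, with medians of -0.10 and 0.08. H2afx, the variant phosphorylated at DNA breaks, was -0.26 at 24 h (adjusted p = 0.187). At 0 h, 9 were higher in marrow and 3 in liver, with a median difference of 1.38. Of all genes 39.5% were higher in marrow and 40.8% higher in liver. H2afx was higher in marrow by 3.70, H2afz by 2.58, H3f3a by 2.13 and H3f3b by 1.45. H1f0, the H1 variant of resting cells, was higher in liver (-1.60, SE 0.15, limma adjusted p = 2.78e-09). Slbp and Npat were higher in marrow by 2.60 and 1.57, and Pcna and Mki67 by 3.38 and 7.97. Of the DNA replication genes 34 of 37 were higher in marrow and 1 higher in liver, and all 20 mitosis genes were higher in marrow. In liver alone, 35 of these 37 and 11 of these 20 passed the filter. The rest passed through marrow alone and so had to differ.

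Markers of marrow cell types were read from the same arrays. The 9 erythroid markers found had a summed level of 322 to 457 at 0 h, 305 to 428 at 24 h and 417 to 555 at 48 h, in units of the array's 75th percentile, and all 9 had a fitted change above 0 at 48 h (median 0.49, 1 called) and 5 at 24 h (median 0.05, 1 called). The 10 B lymphocyte markers were at 66.5 to 113, 47 to 74.2 and 47.1 to 93.1, with a median change of -0.67 at 24 h and -0.43 at 48 h and 0 called. The 5 T lymphocyte markers found were at 6.7 to 7.82, 3.84 to 6.11 and 5.21 to 5.89, with 0 of 5 above 0 at 24 h (median -0.65, 1 called lower) and 48 h (-0.48). Of 6 macrophage markers tested, 1 was above 0 at 24 h (median -0.29) and 0 at 48 h (-0.30), with 0 called. Medians of immature and mature neutrophil and megakaryocyte markers lay between -0.25 and 0.10 at both times, with 0 called. At both times 0 of 5 immature and 2 of 8 mature neutrophil markers were above 0. Of 5 megakaryocyte markers, 1 was above 0 at 24 h and 5 at 48 h. Of all genes in marrow, 43.1% had a fitted change above 0 at 24 h and 49.4% at 48 h, and 0.999% and 1.06% were called. The part of these cell types in the histone values was not tested.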

How the data were processed

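Each of 24 one-colour Agilent arrays was deposited as the scanner's output, with processed signal intensity per spot, extracted with Agilent Feature Extraction 10.10.1.1 per the submitters' processing notes, which also name limma. A deposited table of the authors' log2 values served as an alternative. The 3671 control spots and outlier spots were left out. Intensities were converted to log2, the array's 75th percentile over spots was subtracted, and spots of a probe were averaged. The percentile was first taken over spots, then over probes, then over spots again, with results in view, and the version over probes is reported as an alternative. A gene took its kept probe of highest mean. Tests used limma 3.58.1 in R 4.3.3, within each tissue for time and over all 24 arrays between tissues, with Benjamini-Hochberg adjustment over all genes, and were tested on simulated data. The series text gives 4 mice per time point. Named genes are the 2 brightest of each class in marrow, the 3 largest changes each way per time comparison, the 5 largest tissue differences each way, and set list genes. The members and lists were chosen with earlier results of these data known. Array numbers limit the precision. Probe coordinates are mm9 per the file headers. A result for the list of DNA replication genes is not reported here.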

Additional observations from a re-analysis of the deposited data

Results flagged for a closer look

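Of 183 groups of 4 arrays examined, 6 held 1 array far from the other 3, while chance alone gives about 1 in 20. In liver at 0 h, replicate 1 stood apart in 2 genes: Hist2h3b was -0.34 against -1.44 to -1.28 on the others, and Hist3h2ba, here with its stem-loop probe, was -2.67 against -3.78 to -3.60. The change from 0 to 48 h in liver was -0.59 for Hist2h3b and -0.34 without that array, and -0.60 for Hist3h2ba and -0.35 without it. Hist3h2ba also had a low liver array at 24 h, replicate 1, at -4.13 against -3.51 to -3.43. Hist1h3c was 0.70 on liver 0 h replicate 2 against -0.17 to -0.04. Hist1h2bc was 6.16 on liver 48 h replicate 3 against 6.43 to 6.47. Hist1h2bq was -0.76 on marrow 48 h replicate 4 against -1.23 to -1.20.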

How the results depend on the processing

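Calls of members at an adjusted p under 0.05 (limma) stayed at 0 in the liver time comparisons, in marrow from 24 to 48 h and in both comparisons of the changes between tissues, under every alternative run. In marrow at 24 h the count was 1 with array weights (Hist1h2ac, -0.70, adjusted p = 0.0307), and leaving out single arrays gave 0 to 1, the 1 being Hist1h2ac without 0 h replicate 1 (-0.93, adjusted p = 0.0433). At 48 h it was 1 with array weights (Hist1h2bp, 0.46, adjusted p = 0.0487), which also moved the median to 0.02. Over all alternatives Hist1h2ac at 24 h ranged from -0.93 to -0.42 and its adjusted p from 0.0307 to 0.18. The tissue count was 50 in most settings, 47 after quantile normalization and 34 of the 35 genes tested when every array had to be above background. Its median ran from 2.98 with normexp background correction, which set all genes at -0.26, to 4.03 with quantile normalization. Hist1h3g in marrow at 24 h was 0.16, and leaving out single arrays gave -0.00 to 0.24, the lowest without 0 h replicate 2. With the mean of a gene's kept probes, the member level per array was 2.28, 2.25 and 2.52 in marrow and 1.25, 1.12 and 1.46 in liver at 0, 24 and 48 h. Scaling by the 75th percentile over probes, every kept probe tested, and, for the comparisons with both tissues, time with replicate number as a random block were chosen after seeing the data and gave the same member counts; the percentile over probes put 9 of 51 members above 0 in marrow at 24 h, and the authors' values 18. Arrays of equal replicate number did not deviate together throughout (correlation of deviations within a tissue from -0.27 to 0.17; for the same number and time in the other tissue 0.01 to 0.19, over 0.1 in 7 of 12 pairs), and the replicate block called 0 members in the time comparisons (lowest adjusted p = 0.152 in marrow at 24 h) and 50 between tissues. The number of arrays and dim liver probes limit the precision.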
